A study of Mus musculus with 54 samples.

Results

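The testes described here came from second-generation (F2) mice whose mothers belonged to the lower dose group of a drug mixture, set against testes of F2 mice from control parents. Each group had 3 libraries, A, B and C, chosen by the crosses named in their labels, so 6 of the 54 libraries of the series enter the main comparison. The labels describe an F2 mother dose 1 male as the son of a control male and a female of dose group D1. The females of group D1 received the mixture through drinking water from 8.5 days post-coitum onwards, first through their pregnant dams. Mixture D1 held ibuprofen at 11.3 ng/L, 2-hydroxyibuprofen at 90 ng/L, diclofenac at 22.5 ng/L and ethinyl-estradiol, a synthetic oestrogen, at 2.25 ng/L. The other exposed crosses used for comparison had a dose 1 father, or a mother, a father or both parents of group D2, whose mixture held the same compounds at 113, 225, 112 and 45 ng/L. Control parents drank water with 0.001% ethanol, and the F2 mice of both groups carry the treatment label None. The labels state sacrifice at 10 weeks for exposed males and give no strain or litter, nor an age for the F2 males by themselves. Replicates are therefore known only as separate samples, and p-values measure the spread between these samples, which may be technical.

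The adult testis makes sperm inside tubules, where spermatogonia divide, spermatocytes pass through meiosis and round spermatids elongate, supported by Sertoli cells. Between the tubules lie Leydig cells, which make testosterone, with blood vessels and macrophages. Most RNA of a whole testis comes from germ cells, so the cells between the tubules give a smaller part of the reads. In such bulk samples, fewer cells of a type and less RNA per cell cannot be told apart.

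The 6 libraries held 34.7 M to 40.3 M counts (M, 1e6). All 6 contained germ cell transcripts at high level, with markers of round spermatids summing to 2123.4 to 2165.5 CPM, counts scaled to a library total of 1e6, in mother dose 1 libraries and 1868 to 1944 CPM in control libraries. Ovary markers summed to 0.683 to 0.998 CPM in mother dose 1 libraries and 0.682 to 1.25 CPM in control libraries. Within the mother dose 1 group, libraries A and C lay close together and B stood apart. Their root mean square log2 distance over 16204 genes of at least 1 CPM was 0.159 between A and C, 0.316 between A and B and 0.358 between B and C. Control libraries differed by 0.207 between A and C, 0.268 between A and B and 0.359 between B and C. Distances between a mother dose 1 library and a control library ran from 0.305 to 0.410, so the spread within groups reached into the range between groups.

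Of 19174 genes tested, 154 passed an adjusted p of 0.05 (0.803%) by edgeR's quasi-likelihood test with Benjamini-Hochberg adjustment. Of these, 80 were higher (0.417%) and 74 were lower (0.386%) in mother dose 1 testes. Changes of at least 2-fold were found at 33 of the higher and 19 of the lower genes. An unadjusted p under 0.05 was found at 3400 genes, and the median log2 fold change of all tested genes was 0.0021. In each of the 154 genes the 3 mother dose 1 libraries did not overlap the 3 control libraries, which was also so for 12.5% of tested genes on the higher side and 12.8% on the lower side. The count of 154 rested on which libraries were in the fit. Leaving out mother dose 1 library A gave 27 genes, library B 134 and library C 57. Leaving out control library A gave 27, library B 782 and library C 45. With only the 6 libraries compared it was 218, made of 142 higher and 76 lower genes, a larger share of higher genes than in the fit of all 18 F2 testis libraries.

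Receptor genes were among the largest increases. Klb (Entrez 83379) encodes beta-Klotho, the co-receptor through which fibroblast growth factor receptors bind the endocrine factors FGF15 and FGF21. Its levels were 10.8, 17.0 and 9.79 CPM in mother dose 1 libraries A, B and C, against 1.52, 0.747 and 1.49 CPM in control libraries. The groups were far apart, and library B was the highest of the first group and the lowest of the second. Klb rose 10.0-fold (log2 3.33 ± 0.32 SE, adjusted p = 2.69e-04), a call lost with all 27 testis libraries in the fit (adjusted p = 0.0954). Of 19 genes of the co-receptor pathway tested, 1 was higher and 0 were lower, with a list median of -0.12 on the log2 scale. The target genes Etv5 (log2 -0.30, adjusted p = 0.128) and Spry4 (log2 -0.57, adjusted p = 0.143) and the receptor Fgfr4 (log2 -0.34, adjusted p = 0.276) did not pass.

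Tnfrsf12a (Entrez 27279), the receptor for the cytokine TWEAK, held 4.61, 4.99 and 4.51 CPM in mother dose 1 libraries and 1.01, 1.12 and 1.26 CPM in control libraries. Its libraries were tight within both groups, and it rose 4.14-fold (log2 2.05 ± 0.25, adjusted p = 7.31e-04). Among 19 tested genes of its ligand and receptor family 1 was higher and 0 were lower. Tnfrsf1a, a receptor for tumour necrosis factor, had a log2 fold change of -0.43 (adjusted p = 0.103). Il11ra1 (Entrez 16157), a receptor chain for interleukin-11, rose 2.7-fold (log2 1.43 ± 0.24, adjusted p = 0.00814). It held 6.54, 7.67 and 4.87 CPM in mother dose 1 libraries against 2.87, 2.07 and 2.12 CPM in control libraries, and its call was lost without control library C (adjusted p = 0.0558). The shared signalling chain Il6st had a log2 fold change of -0.40 (adjusted p = 0.129).

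**Figure D1:**
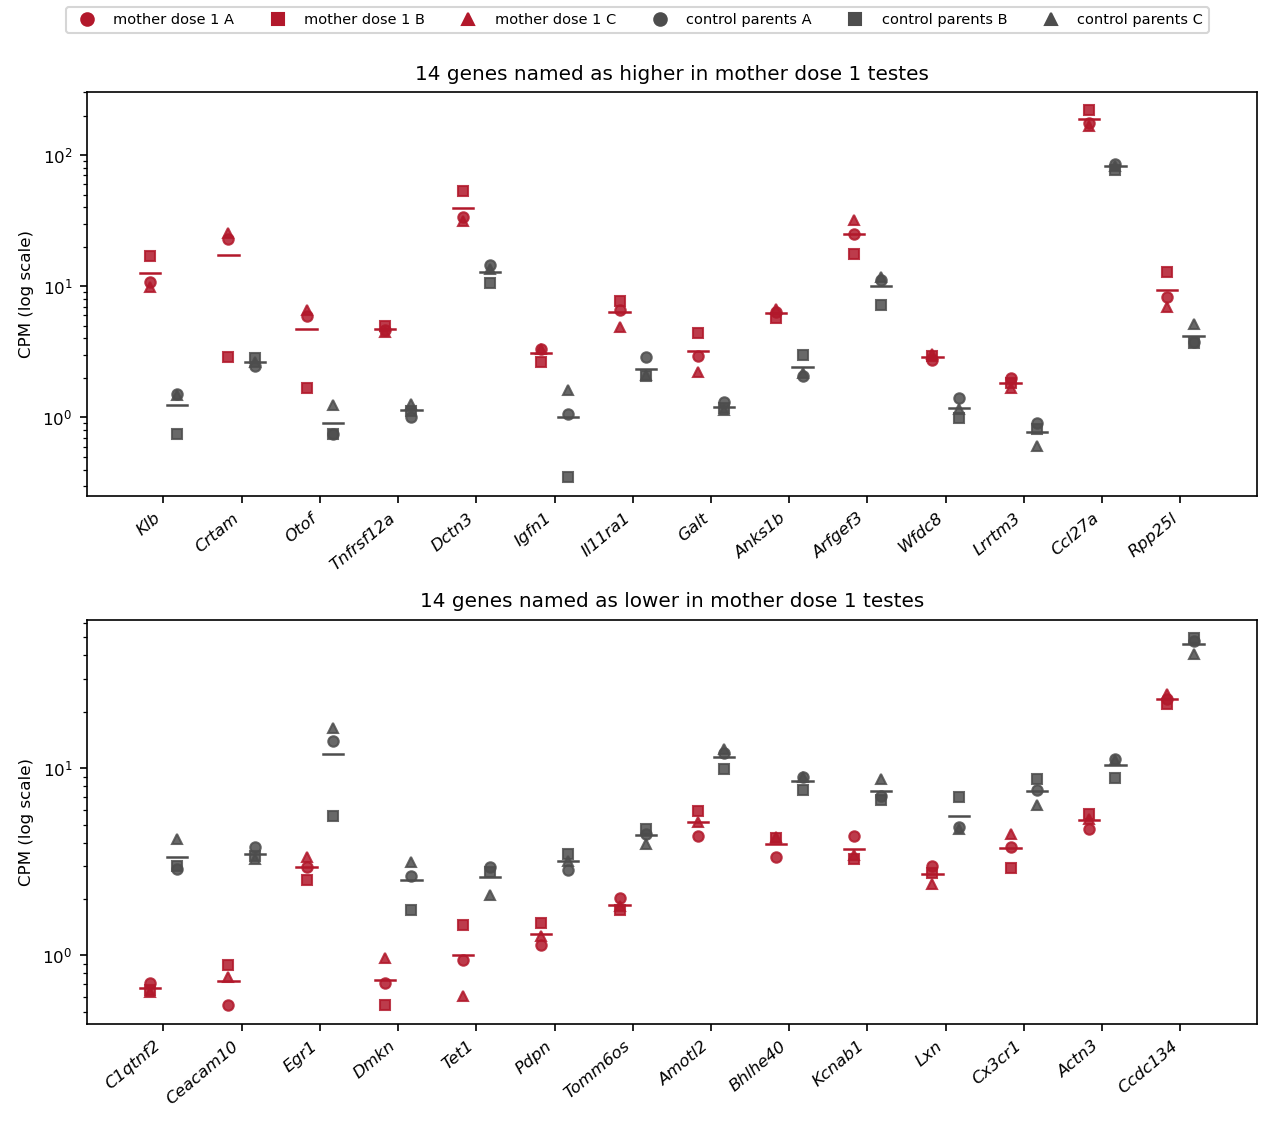
CPM of each library on a log scale for 14 named genes that were higher and 14 that were lower, chosen by size of change among abundant genes with established symbols, mother dose 1 in red on the left and control parents in grey on the right of each gene, with a line at each group's mean. Klb stood at 9.79 to 17.0 CPM in mother dose 1 libraries and at 0.747 to 1.52 CPM in control libraries, while Crtam and Otof of mother dose 1 library B lay near the controls.

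Il11ra1 belonged to a run of neighbouring genes that were higher together. In the gene order of the RefSeq table of build GRCm38.p6, the called genes Rpp25l, Dctn3, Galt, Il11ra1 and Ccl27a lay in this order on chromosome 4, as part of a run of called genes at most 3 places apart. Dctn3 (Entrez 53598), a subunit of dynactin that links dynein to its cargo, held 33.8, 53.0 and 31.4 CPM in mother dose 1 libraries and 14.4, 10.7 and 13.6 CPM in control libraries. It rose 3.06-fold (log2 1.61 ± 0.22, adjusted p = 0.00298). Of the 24 genes of the dynactin and cytoplasmic dynein list, 1 was higher, 0 were lower and the median log2 fold change was -0.016.

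Galt (Entrez 14430), the uridylyltransferase of galactose breakdown, held 2.96, 4.36 and 2.23 CPM in mother dose 1 libraries and 1.30, 1.17 and 1.14 CPM in control libraries, a 2.64-fold increase (log2 1.40 ± 0.23, adjusted p = 0.00625). The other 7 tested genes of the galactose pathway did not pass, among them Galk1 (log2 0.53, adjusted p = 0.357). Ccl27a (Entrez 20301), a chemokine gene, was the most abundant of the 5 at 177, 219 and 167 CPM in mother dose 1 libraries and 85.7, 77.4 and 83.0 CPM in control libraries (log2 1.19 ± 0.13, adjusted p = 2.69e-04). Rpp25l, related to a ribonuclease P subunit, held 8.22, 12.9 and 6.99 CPM in mother dose 1 libraries and 3.75, 3.71 and 5.13 CPM in control libraries (log2 1.16 ± 0.22, adjusted p = 0.023), a call lost without mother dose 1 library A (adjusted p = 0.0534) or B (0.0553) or control library A (0.146). In all 5 genes mother dose 1 library B was the highest. Genes tested between them that did not pass had log2 fold changes of 1.32 for Arid3c (adjusted p = 0.281) and 0.42 for Gm42274 (adjusted p = 0.502). On one side Ccl21b followed at 0.93 (adjusted p = 0.075) and then 4930578G10Rik at -0.19, and on the other side Cntfr at 0.50 (adjusted p = 0.061) and Enho at 0.15.

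Counts in the run can be shared between genes. Il11ra1 and Ccl27a overlap on opposite strands in GENCODE M21, with the strand setting of the counting not stated in the labels. Of all 100-base windows in GENCODE M21 transcripts, 29.1% of those of Il11ra1 and 26.5% of those of Ccl27a occurred in transcripts of other genes, among them Il11ra2 and Ccl27b. The share was 15.3% for Galt, while 0 of 1037 windows of Dctn3 and 0 of 757 of Rpp25l were shared. Levels of Il11ra1, Ccl27a and Galt are therefore uncertain as values of 1 gene, while those of Dctn3 and Rpp25l are free of this limit in that annotation.

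The promoters of 5 genes of the run are shown because these genes were higher together. They are RefSeq sequences of build GRCm38.p6, 250 bases before to 50 bases after an annotated start, read 5′ to 3′ on the gene's strand, and the tested counts were made on another build (mm39). Where that table gives several starts, the first listed is shown. Capitals mark the E-box CACGTG, the cAMP response element TGACGTCA and the GC box GGGCGG on either strand.
Rpp25l promoter, chr4:41713468-41713767 (- strand): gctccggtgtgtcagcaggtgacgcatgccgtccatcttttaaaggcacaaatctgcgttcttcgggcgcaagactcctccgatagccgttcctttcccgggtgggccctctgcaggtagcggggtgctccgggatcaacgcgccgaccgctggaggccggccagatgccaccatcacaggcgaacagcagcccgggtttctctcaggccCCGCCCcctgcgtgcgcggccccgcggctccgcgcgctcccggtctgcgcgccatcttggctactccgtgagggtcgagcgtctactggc
Dctn3 promoter, chr4:41723114-41723413 (- strand): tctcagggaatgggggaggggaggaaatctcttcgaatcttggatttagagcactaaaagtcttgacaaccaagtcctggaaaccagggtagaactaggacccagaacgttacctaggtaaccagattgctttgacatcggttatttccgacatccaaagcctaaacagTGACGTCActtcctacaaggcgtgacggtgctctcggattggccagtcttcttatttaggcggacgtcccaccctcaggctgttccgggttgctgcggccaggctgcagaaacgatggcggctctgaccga
Galt promoter, chr4:41755267-41755566 (+ strand): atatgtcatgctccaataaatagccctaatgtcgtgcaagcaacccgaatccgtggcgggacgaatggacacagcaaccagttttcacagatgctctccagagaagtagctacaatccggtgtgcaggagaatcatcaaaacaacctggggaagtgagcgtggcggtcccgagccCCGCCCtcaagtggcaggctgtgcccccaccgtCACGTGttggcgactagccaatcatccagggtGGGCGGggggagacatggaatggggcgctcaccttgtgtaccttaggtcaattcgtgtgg
Il11ra1 promoter, chr4:41760193-41760492 (+ strand): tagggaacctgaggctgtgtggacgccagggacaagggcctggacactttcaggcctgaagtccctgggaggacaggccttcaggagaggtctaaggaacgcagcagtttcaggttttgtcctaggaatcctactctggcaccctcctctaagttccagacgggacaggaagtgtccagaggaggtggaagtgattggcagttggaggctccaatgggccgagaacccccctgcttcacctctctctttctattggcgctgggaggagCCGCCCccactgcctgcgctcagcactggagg
Ccl27a promoter, chr4:41774127-41774426 (- strand): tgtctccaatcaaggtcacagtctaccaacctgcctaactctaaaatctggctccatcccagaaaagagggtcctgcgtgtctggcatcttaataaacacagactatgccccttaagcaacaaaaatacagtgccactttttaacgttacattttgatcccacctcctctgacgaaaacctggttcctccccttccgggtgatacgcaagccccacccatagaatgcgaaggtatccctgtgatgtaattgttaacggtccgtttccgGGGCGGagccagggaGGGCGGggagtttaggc
Dctn3 held the cAMP response element, which 1.8% of 32544 promoters of this length held. Galt held the E-box, found in 7.17% of promoters. A GC box was present in all of those shown except that of Dctn3, and in 35.9% of promoters. No motif of these was common to all 5 sequences, and a match describes the letters alone.

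The same stretch was compared in the other tissue and generation. In F2 ovaries of the mother dose 1 cross, with libraries of their own, Dctn3 held 57.6, 93.4 and 55.4 CPM against 32.9, 23.0 and 20.5 CPM in control ovaries, and the groups did not overlap. The ovary log2 fold changes were 1.43 ± 0.25 for Dctn3, 1.45 ± 0.25 for Ccl27a, 1.30 ± 0.26 for Galt, 1.34 ± 0.27 for Rpp25l and 1.02 ± 0.28 for Il11ra1. None passed in ovary by edgeR's test (adjusted p = 0.269 to 0.314), which called 0 of 17399 genes there (0%) with 1596 at an unadjusted p under 0.05. DESeq2 called 121 of the 18984 ovary genes it gave an adjusted p, 84 higher and 37 lower. Its adjusted p was 7.96e-05 for Dctn3 and for Ccl27a, 0.00121 for Galt, 0.00161 for Rpp25l and 0.0387 for Il11ra1. In F1 testes, where dose 1 was compared with F1 controls, the log2 fold changes of these genes were -0.42 to -0.04.

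**Figure D2:**
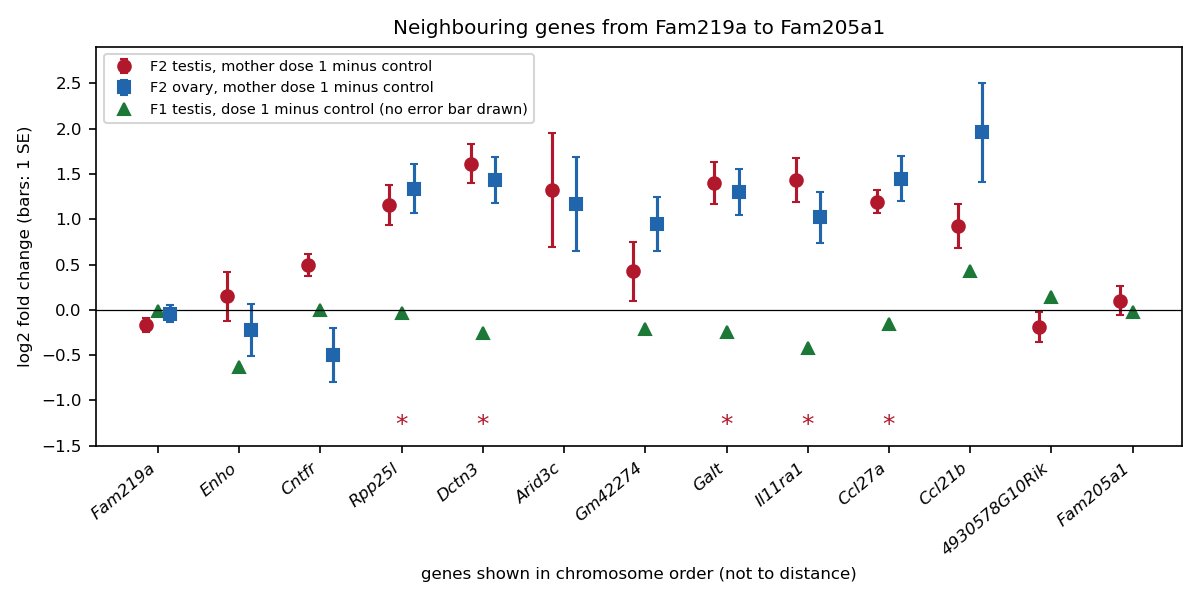
Log2 fold change with 1 SE for genes shown in chromosome order, for mother dose 1 minus control in F2 testis (red circles) and F2 ovary (blue squares) and for dose 1 minus control in F1 testis (green triangles). Asterisks mark 5 genes called in F2 testis, which stood at 1.16 to 1.61 in F2 testis and 1.02 to 1.45 in F2 ovary, while their F1 values lay between -0.42 and -0.04.

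Another 11 runs held between 2 and 4 called genes with at most 2 tested genes between neighbours, and 31 of the 154 called genes (20.1%) lay in the 12 runs. In 11 of the 12 runs all called genes moved in 1 direction. The share expected for genes placed at random was not computed. In some runs called genes shared 100-base windows with each other, so their directions are not independent. Catspere1 and Catspere2, subunits of the calcium channel complex of sperm, were both higher, at 107, 118 and 101 CPM of Catspere1 in mother dose 1 libraries against 74.7, 79.4 and 78.1 CPM in control libraries (log2 0.49 ± 0.10, adjusted p = 0.0248) and log2 0.44 ± 0.10 for Catspere2 (adjusted p = 0.0419). They are close copies that shared 11.5% and 6.58% of their 100-base windows. Tomm6, a small subunit of the mitochondrial import pore, was lower at 27.1, 30.6 and 24.6 CPM in mother dose 1 libraries and 53.1, 42.1 and 43.4 CPM in control libraries (log2 -0.75 ± 0.10, adjusted p = 0.00188). Its antisense neighbour Tomm6os was also lower (log2 -1.23 ± 0.20, adjusted p = 0.00759). On either strand, 62.1% of the windows of Tomm6 and 27.5% of those of Tomm6os lie in other transcripts, so both values are uncertain as levels of 1 gene. Gm3002, Gm5796, Gm3264 and 4930555G01Rik were higher by log2 0.74 to 1.04 and shared 67.9 to 89.8% of their windows with other genes, so each value is uncertain.

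Crtam (Entrez 54698), a receptor of cytotoxic lymphocytes, and Otof (Entrez 83762), otoferlin, a calcium sensor of vesicle release, were high in 2 of the 3 mother dose 1 libraries. Crtam held 23.0, 2.91 and 25.6 CPM in mother dose 1 libraries and 2.47, 2.81 and 2.63 CPM in control libraries. Library B exceeded the highest control by little, and libraries A and C were far above it. The fitted difference was log2 2.70 ± 0.57 (adjusted p = 0.0467), lost without mother dose 1 library A (adjusted p = 0.153) or C (0.132) and without control library A (0.197) or C (0.179). It was also lost with only the 6 libraries (0.226), with the replicate block (0.0563), with all 27 (0.143) and with no filter on low counts (0.0648). Otof held 5.94, 1.68 and 6.63 CPM in mother dose 1 libraries and 0.745, 0.747 and 1.24 CPM in control libraries (log2 2.38 ± 0.44, adjusted p = 0.0237), and its call was lost under the same 4 omissions (adjusted p = 0.0589 to 0.148) and with only the 6 libraries (0.102). Markers of T and NK lymphocytes summed to 1.76 to 2.33 CPM in mother dose 1 libraries and 1.17 to 2.02 CPM in control libraries, with each of the 7 measured markers under 1 CPM on average and 1 of them at 0 in all 6 libraries. A wider list of 21 measured T and NK genes had 12 that were tested. Those 12 summed to 27.6 to 29.6 CPM in mother dose 1 libraries and 22.0 to 23.2 CPM in control libraries, without overlap. None of the 12 passed, 10 had a positive sign and the median was 0.19. Epididymis markers, 5 of 6 under 1 CPM on average, summed to 7.40, 1.34 and 7.65 CPM in mother dose 1 libraries A, B and C. In control libraries they summed to 5.00, 6.22 and 3.41 CPM. The part of lymphocyte or epididymis levels in Crtam and Otof was not tested.

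Further named increases were of 5 genes. Arfgef3, a large protein of the family that activates ARF GTPases, held 25.1, 17.7 and 31.9 CPM in mother dose 1 libraries and 11.1, 7.25 and 11.7 CPM in control libraries (log2 1.32 ± 0.20, adjusted p = 0.00532). Anks1b, a postsynaptic scaffold, held 6.34, 5.70 and 6.66 CPM in mother dose 1 libraries and 2.07, 3.01 and 2.20 CPM in control libraries (log2 1.36 ± 0.21, adjusted p = 0.00476). Lrrtm3, a synaptic adhesion protein, held 1.99, 1.83 and 1.68 CPM in mother dose 1 libraries and 0.904, 0.822 and 0.607 CPM in control libraries (log2 1.23 ± 0.21, adjusted p = 0.00936). In all 3 of these genes the groups were apart. The call of Arfgef3 was lost with only the 6 libraries (adjusted p = 0.0719) and with all 27 (0.102), and that of Anks1b with all 27 (0.0705). The protease inhibitor gene Wfdc8 rose by log2 1.28 ± 0.24 (adjusted p = 0.0158) and Igfn1, which encodes a protein of muscle Z-discs, by log2 1.61 ± 0.34 (adjusted p = 0.0323). Without mother dose 1 library A the adjusted p was 0.0612 for Lrrtm3, 0.0534 for Wfdc8 and 0.126 for Igfn1. Without mother dose 1 library C the calls of Wfdc8 (0.0551) and Igfn1 (0.095) were lost, without control library C those of Lrrtm3 (0.0558) and Wfdc8 (0.0661), and without control library A that of Igfn1 (0.15).

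Among immediate early genes, Egr1 and Btg2 were lower. Egr1 (Entrez 13653), an immediate early transcription factor, held 2.96, 2.54 and 3.36 CPM in mother dose 1 libraries and 14, 5.55 and 16.3 CPM in control libraries. Mother dose 1 libraries were uniform, while control library B was far below the other controls. Egr1 fell 4.04-fold (log2 -2.02 ± 0.28, adjusted p = 0.00308). The antiproliferative gene Btg2 fell by 0.69 on the log2 scale (± 0.16, adjusted p = 0.0467), with 3.70, 3.51 and 4.32 CPM in mother dose 1 libraries and 6.60, 4.43 and 7.63 CPM in control libraries. That call was lost in 5 of the 6 omissions of 1 library, all but control library B (adjusted p = 0.0792 to 0.232). The call of Egr1 was lost with only the 6 libraries (0.0914) and with all 27 (0.102). Of 28 tested immediate early genes 0 were higher and 2 were lower, against 0.386% lower over all tested genes, with 9 genes of positive sign and a median log2 fold change of -0.11. Junb (log2 -0.72, adjusted p = 0.153) and Fos (log2 -1.09, adjusted p = 0.292) did not pass, and in both control library B was below the other control libraries.

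Bhlhe40 (Entrez 20893), a repressor acting on clock genes, held 3.36, 4.22 and 4.26 CPM in mother dose 1 libraries and 8.94, 7.64 and 8.97 CPM in control libraries, and fell 2.16-fold (log2 -1.11 ± 0.16, adjusted p = 0.00298). Cry2, a core repressor of the circadian clock, fell by 0.33 on the log2 scale (± 0.076, adjusted p = 0.044), and was lost without any library but control B (adjusted p = 0.0792 to 0.182). These 2 were the called members of 19 tested clock genes, with 0 higher, against 0.386% lower over all tested genes. The list median was -0.12, with 15 genes of negative and 4 of positive sign. The hour of sampling is unstated. Tet1 (Entrez 52463), which oxidises methylated cytosine, held 0.939, 1.45 and 0.605 CPM in mother dose 1 libraries and 2.98, 2.79 and 2.1 CPM in control libraries. It fell 2.62-fold (log2 -1.39 ± 0.27, adjusted p = 0.0236), a call lost without mother dose 1 library A (adjusted p = 0.108) or C (0.095) and without control library A (0.132). It was the called member of 20 tested genes of DNA methylation and its removal. Tet3 (log2 -0.37, adjusted p = 0.173) and Dnmt1 (log2 -0.22, adjusted p = 0.276) did not pass.

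Genes of cells between the tubules were lower in small numbers. Cx3cr1 (Entrez 13051), the fractalkine receptor of macrophages, held 3.78, 2.94 and 4.46 CPM in mother dose 1 libraries and 7.61, 8.71 and 6.34 CPM in control libraries, and fell 2.03-fold (log2 -1.02 ± 0.19, adjusted p = 0.0151). The call was lost without mother dose 1 library A (adjusted p = 0.0688) or control library A (0.0742). A set of 6 defining macrophage markers, Cx3cr1 among them, summed to 41.6 to 46.5 CPM in mother dose 1 libraries and 49.1 to 52.5 CPM in control libraries. The wider list of 24 macrophage genes overlapped, at 420.3 to 440.2 CPM in mother dose 1 libraries and 399.6 to 435.4 CPM in control libraries, with 11 genes of positive and 13 of negative sign. The part of these sums in Cx3cr1 was not tested. Csf1r (log2 -0.26, adjusted p = 0.253) and Mrc1 (log2 -0.22, adjusted p = 0.257) did not pass, and 1 of 24 tested macrophage genes was called. List values ran from log2 -1.29 for Lyve1 to 0.99 for H2-Aa. Against the mean of the other 4 exposed crosses, 7 of the 24 were higher and 0 lower, beside 0.626% higher over all tested genes. The list median there was 0.32. Cx3cr1 was also lower than controls in each of those crosses (log2 -1.66 to -1.06). Against their mean it stood at log2 0.32 (adjusted p = 0.265). Nr5a1, the transcription factor SF-1 of steroid-making cells, held 28.7, 38.6 and 28.3 CPM in mother dose 1 libraries and 47.0, 41.0 and 48.3 CPM in control libraries (log2 -0.51 ± 0.12, adjusted p = 0.0438). Libraries A and C of mother dose 1 were low and B was close to control library B, and the call was lost without any of the A or C libraries (adjusted p = 0.149 to 0.192). Leydig markers summed to 1103 to 1266 CPM in mother dose 1 libraries and 1303 to 1373 CPM in control libraries. Cyp11a1, which starts steroid synthesis, had a log2 fold change of -0.39 (adjusted p = 0.176), and 1 of 22 tested Leydig and steroidogenesis genes was called. Of those 22 genes, 16 had a negative sign and 6 a positive one, with the Leydig marker Insl3 the highest at log2 0.49.

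The amino acid transporters Slc7a5 and Slc7a8, which both pair with the heavy chain Slc3a2, were lower. Slc7a5 held 169, 173 and 160 CPM in mother dose 1 libraries and 239, 224 and 219 CPM in control libraries (log2 -0.44 ± 0.077, adjusted p = 0.0107), and its call was lost without mother dose 1 library A (adjusted p = 0.0545) or C (0.0556) or control library A (0.0928). Slc7a8 held 48.8, 46.4 and 47.9 CPM in mother dose 1 libraries and 71.1, 79.5 and 59.5 CPM in control libraries (log2 -0.55 ± 0.12, adjusted p = 0.033), lost in 5 of the 6 omissions of 1 library, all but control library C (adjusted p = 0.0507 to 0.157). Slc3a2 itself had a log2 fold change of -0.24 (adjusted p = 0.0678). Of 19 tested transporters 0 were higher and 2 were lower, against 0.386% lower over all tested genes. The list median was -0.21, with 14 genes of negative and 5 of positive sign, the highest Slc1a5 at log2 0.52.

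Among the other large decreases, C1qtnf2, a secreted relative of complement C1q, held 0.711, 0.656 and 0.633 CPM in mother dose 1 libraries and 2.9, 2.99 and 4.17 CPM in control libraries (log2 -2.33 ± 0.47, adjusted p = 0.0323), lost without any library but control B (adjusted p = 0.08 to 0.132). Ceacam10, of the carcinoembryonic antigen family, held 0.540, 0.884 and 0.770 CPM in mother dose 1 libraries and 3.78, 3.41 and 3.29 CPM in control libraries (log2 -2.25 ± 0.36, adjusted p = 0.00532), lost without mother dose 1 library A (0.0534). Both were low in every mother dose 1 library. Amotl2, a junction scaffold that binds YAP, held 4.32, 5.93 and 5.15 CPM in mother dose 1 libraries and 12.0, 9.93 and 12.6 CPM in control libraries (log2 -1.17 ± 0.17, adjusted p = 0.00241). Dmkn, Pdpn, Kcnab1, Actn3 and Ccdc134 were lower by log2 -1.76 to -0.98. Each of these 5 lost its call in 4 or 5 of the 6 omissions of 1 library. Ccdc134 was the most abundant of them, at 22.1 to 25 CPM in mother dose 1 libraries and 41.0 to 49.5 CPM in control libraries. The basement membrane gene Nid1 fell by 0.50 on the log2 scale (± 0.12, adjusted p = 0.049), lost without any library but control B (adjusted p = 0.0991 to 0.187), and was the called member of 30 tested extracellular matrix genes, of which 26 had a negative sign and 4 a positive one.

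Marker lists described the make-up of the samples. Markers of elongating spermatids summed to 14366 to 14523 CPM in mother dose 1 libraries and 11422 to 13124 CPM in control libraries, and those of spermatogonia to 40.9 to 48.3 CPM in mother dose 1 libraries and 54.1 to 56.3 CPM in control libraries. Endothelial markers summed to 17.0 to 19.3 CPM in mother dose 1 libraries and 20.0 to 24.5 CPM in control libraries, and Sertoli markers to 135 to 138 CPM in mother dose 1 libraries and 140 to 155 CPM in control libraries. For these short sets of 4 to 6 markers, and for those of round spermatids, Leydig cells and macrophages, the groups did not overlap. Wider gene lists of the same cells overlapped for elongating spermatids, spermatogonia, Sertoli cells and macrophages. The elongating spermatid list summed to 32005 to 33334 CPM in mother dose 1 libraries and 29762 to 32862 CPM in control libraries, and the spermatogonia list to 801 to 817 CPM in mother dose 1 libraries and 767 to 880 CPM in control libraries. The Sertoli list summed to 1389 to 1595 CPM in mother dose 1 libraries and 1375 to 1758 CPM in control libraries. The wider lists stayed apart for round spermatids, Leydig cells and endothelium. Leydig genes, for example, summed to 1725 to 1919 CPM in mother dose 1 libraries and 2027 to 2114 CPM in control libraries. Adipocyte markers, 3 of 5 under 1 CPM on average, summed to 13.8 to 16.2 CPM in mother dose 1 libraries and 10.8 to 12.7 CPM in control libraries, again without overlap. Peritubular markers overlapped between groups, at 362 to 390 CPM in mother dose 1 libraries and 353 to 407 CPM in control libraries. Spermatocyte markers also overlapped, at 864 to 881 CPM in mother dose 1 libraries and 832 to 920 CPM in control libraries. The sets of erythroid cells, B lymphocytes, T and NK lymphocytes, epididymis and ovary overlapped as well. Of 22 tested round spermatid genes 0 passed, 18 had a positive sign and the median was 0.13, against 0.0021 over all tested genes. In the spermatogonia, meiotic spermatocyte, elongating spermatid, Sertoli, peritubular and endothelial lists 0 genes passed as well. None of 14 oestrogen response genes passed, with 6 of positive and 8 of negative sign. They ran from Esr1 at log2 -0.64 (adjusted p = 0.0625) to Esr2 at log2 1.40. None of 17 genes of prostaglandin synthesis and receptors passed, with 9 of positive and 8 of negative sign. They ran from Hpgds at log2 -0.56 to the receptor Ptger1 at log2 1.23 (adjusted p = 0.061). Of 31 genes of lipid storage and beta-oxidation, 26 antioxidant genes, 19 heat shock and cold-inducible genes, 24 interferon-stimulated genes and 24 imprinted genes 0 passed in either direction. The called members of 3 further lists were Otof among 20 genes of vesicle release, Il11ra1 among 16 of oncostatin and JAK-STAT signalling and C1qtnf2 among 11 secreted proteins related to C1q and TNF. Any part of the shifts in marker sums in the called genes was not tested.

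**Figure D3:**
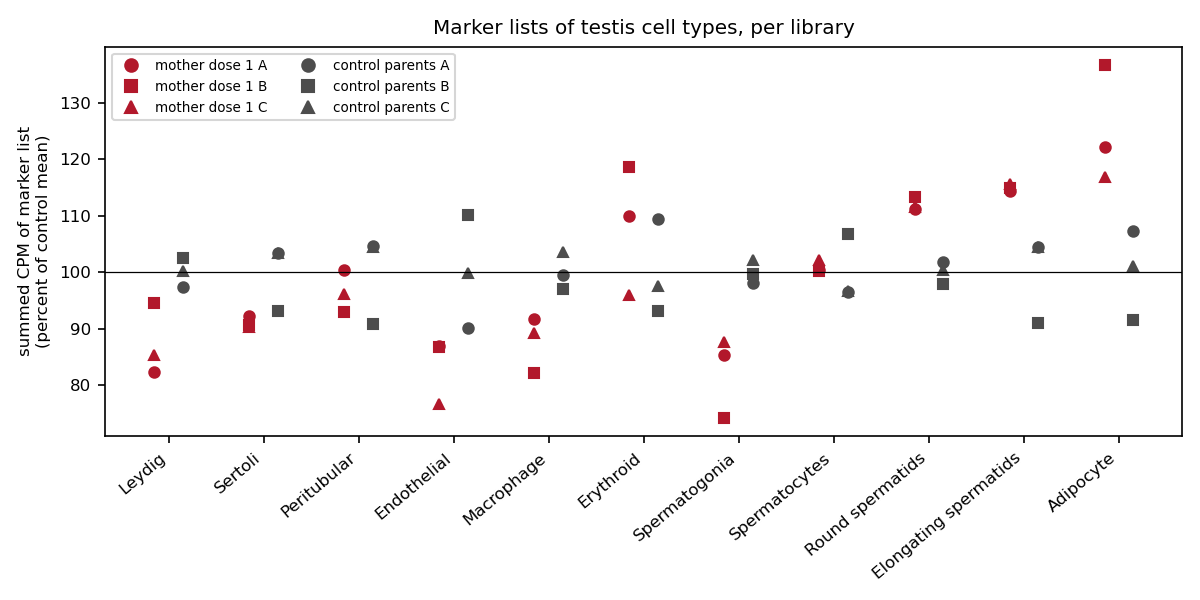
Summed CPM of short marker sets of testis cell types in each library, as a percent of the mean of the 3 control libraries, mother dose 1 in red on the left and control parents in grey on the right. Round and elongating spermatid markers lay above the control libraries in all 3 mother dose 1 libraries, and spermatogonia, Leydig, macrophage and endothelial markers lay below them. Peritubular, spermatocyte and erythroid markers overlapped between groups. The wider lists of elongating spermatid, spermatogonia and macrophage genes overlapped between groups too.

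The first generation gave levels for the same genes in other animals. In F1 testes dose 1 differed from F1 controls at 6 of 18858 genes (0.0318%), with 2 higher (0.0106%) and 4 lower (0.0212%), and none of the 154 genes was among them. A test of the F2 effect minus the F1 effect passed at 35 of 19400 genes (0.18%), with 23 higher (0.119%) and 12 lower (0.0619%). On a scale shared by all 27 testis libraries, Klb stood at 1.79, 20.3 and 1.53 CPM in F1 dose 1 libraries and 6.02, 0.964 and 17.1 CPM in F1 control libraries, a spread as wide as that between the F2 groups. Crtam was high in 1 of 3 F1 dose 1 libraries (27.6 CPM against 2.71 and 2.88 CPM) and in none of the F1 controls (2.52 to 3.08 CPM). Ceacam10 stood at 0.690, 3.41 and 3.74 CPM in F1 dose 1 libraries and 0.583, 0.406 and 0.669 CPM in F1 control libraries. Tnfrsf12a stood at 4.05, 0.941 and 0.627 CPM in F1 dose 1 libraries and 4.59, 5.68 and 5.31 CPM in F1 control libraries. Egr1 stood at 2.85, 4.35 and 4.90 CPM in F1 dose 1 libraries and 29.3, 46.2 and 3.77 CPM in F1 control libraries.

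Of the 37 genes named here and called against F2 controls, 22 had F1 libraries on both sides, at or past the F2 mother dose 1 libraries and at or past the F2 control libraries. In 2 of the 37, Lxn and Kcnab1, the 3 mother dose 1 libraries were the extreme of all 27 testis libraries. In 9, which were Dctn3, Il11ra1, Galt, Ccl27a, Rpp25l, Otof, Bhlhe40, Cx3cr1 and Slc7a5, the 3 F2 control libraries were. Over all 19174 tested genes the mother dose 1 libraries were the extreme in 23 (0.12%) and the control libraries in 249 (1.3%). Over the 154 called genes, which had been called for a difference between these groups, the mother dose 1 libraries were the extreme in 3 (1.95%) and the control libraries in 40 (26%), so these shares are a description. Dctn3, for example, stood at 31.5 to 53.0 CPM in mother dose 1 libraries, 24.6 to 41.1 CPM in F1 libraries and 10.6 to 14.3 CPM in F2 control libraries.

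Because all F2 crosses share the same 3 control libraries, mother dose 1 was also set against the mean of the other 4 exposed crosses, a contrast without those controls. It gave 189 of 19174 genes (0.986%), with 120 higher (0.626%) and 69 lower (0.36%). Of the 154 genes called against control parents, 25 also passed this contrast with the same sign. Klb did not pass there (log2 0.15 ± 0.21, adjusted p = 0.716), nor did Dctn3 (0.38, adjusted p = 0.234), Egr1 (-0.76, adjusted p = 0.132) or Tet1 (-0.58, adjusted p = 0.202). Amotl2 (log2 -0.18, adjusted p = 0.475) and Slc7a8 (log2 0.014, adjusted p = 0.949) did not pass either. Of the same 154 genes, 31 were called against the shared controls in no other exposed cross. In every exposed cross 25 were called with the same sign. Against the shared controls, the log2 fold change of Klb was 3.33 with mother dose 1, 3.45 with mother dose 2, 2.96 with father dose 1, 3.42 with father dose 2 and 2.86 with both parents at dose 2. For Dctn3 these values were 1.61, 1.00, 1.91, 0.94 and 1.09 in the same order. Tnfrsf12a did pass (log2 1.15, adjusted p = 0.00367), as did Crtam (2.50, adjusted p = 0.00808), Anks1b (0.86, adjusted p = 0.011), Lrrtm3 (0.74, adjusted p = 0.0315), Tomm6os (-0.91, adjusted p = 0.0156) and Kcnab1 (-0.84, adjusted p = 0.0182).

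Lxn (Entrez 17035), latexin, an inhibitor of carboxypeptidases, was lower in each mother dose 1 library than in any other testis library. On the scale of all 27 testis libraries it held 3.01, 2.74 and 2.4 CPM in mother dose 1 libraries, 6.11 to 10.7 CPM in the 12 libraries of the other exposed crosses and 4.84, 6.94 and 4.75 CPM in control libraries. It was lower than the other crosses (log2 -1.5, adjusted p = 4.47e-05) and than controls (log2 -1.03 ± 0.17, adjusted p = 0.00811). Arfgef3 was higher than in the other exposed crosses, at 25.1, 17.7 and 32 CPM in mother dose 1 libraries and 5.66 to 16.6 CPM in the other crosses (log2 1.63, adjusted p = 4.47e-05). Of the 9 F1 libraries, 4 were at or above the lowest mother dose 1 library. Abcf1, a ribosome-associated ATPase, and Tada1, a subunit of the SAGA coactivator, were lower than in the other crosses (log2 -0.47 and -0.61, adjusted p = 9.47e-04 and 0.00235) and than in controls (log2 -0.37 and -0.49, adjusted p = 0.0236 and 0.0382), where both calls were lost in 4 of the 6 omissions of 1 library (adjusted p = 0.0636 to 0.159). Nt5dc3 was lower than both as well (log2 -0.59, adjusted p = 0.00273, and log2 -0.54, adjusted p = 0.0236), the call against controls lost in 4 of the 6 omissions (adjusted p = 0.0698 to 0.103). Of their 100-base windows, 30.1% of those of Tada1 and 19.1% of those of Nt5dc3 occurred in transcripts of other genes, so these values are uncertain as levels of 1 gene.

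A further set differed from the other crosses but did not pass against controls. Aqp2, a water channel, held 10.1, 11.8 and 9.91 CPM in mother dose 1 libraries, 3.55 to 6.80 CPM in the other exposed crosses and 14.5, 8.75 and 14.2 CPM in control libraries. Ass1, argininosuccinate synthase of arginine synthesis, held 125, 142 and 115 CPM in mother dose 1 libraries, 61.8 to 94.5 CPM in the other exposed crosses and 143, 128 and 151 CPM in control libraries. The value of Ass1 is uncertain in the same way (26.9% of windows shared). For both, mother dose 1 libraries lay above all 12 libraries of the other crosses and overlapped the control libraries (log2 0.99 and 0.62 against the crosses, adjusted p = 0.00235 and 0.00243, and log2 -0.24 and -0.15 against controls, adjusted p = 0.504 and 0.509). Cstb, cystatin B, an inhibitor of cathepsins, was higher than in the other crosses (log2 0.93, adjusted p = 1.67e-04), with log2 0.39 against controls (adjusted p = 0.161). Ccdc42os, an antisense transcript, held 3.21, 3.08 and 2.21 CPM in mother dose 1 libraries and 0.709 to 2.82 CPM in the other crosses (log2 1.31, adjusted p = 0.00137), where the father dose 1 libraries, at 2.29 to 2.82 CPM, were as high. Zfp729a was lower than in the other crosses (log2 -0.98, adjusted p = 0.00235), with log2 -0.72 against controls (adjusted p = 0.0523).

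**Figure D4:**
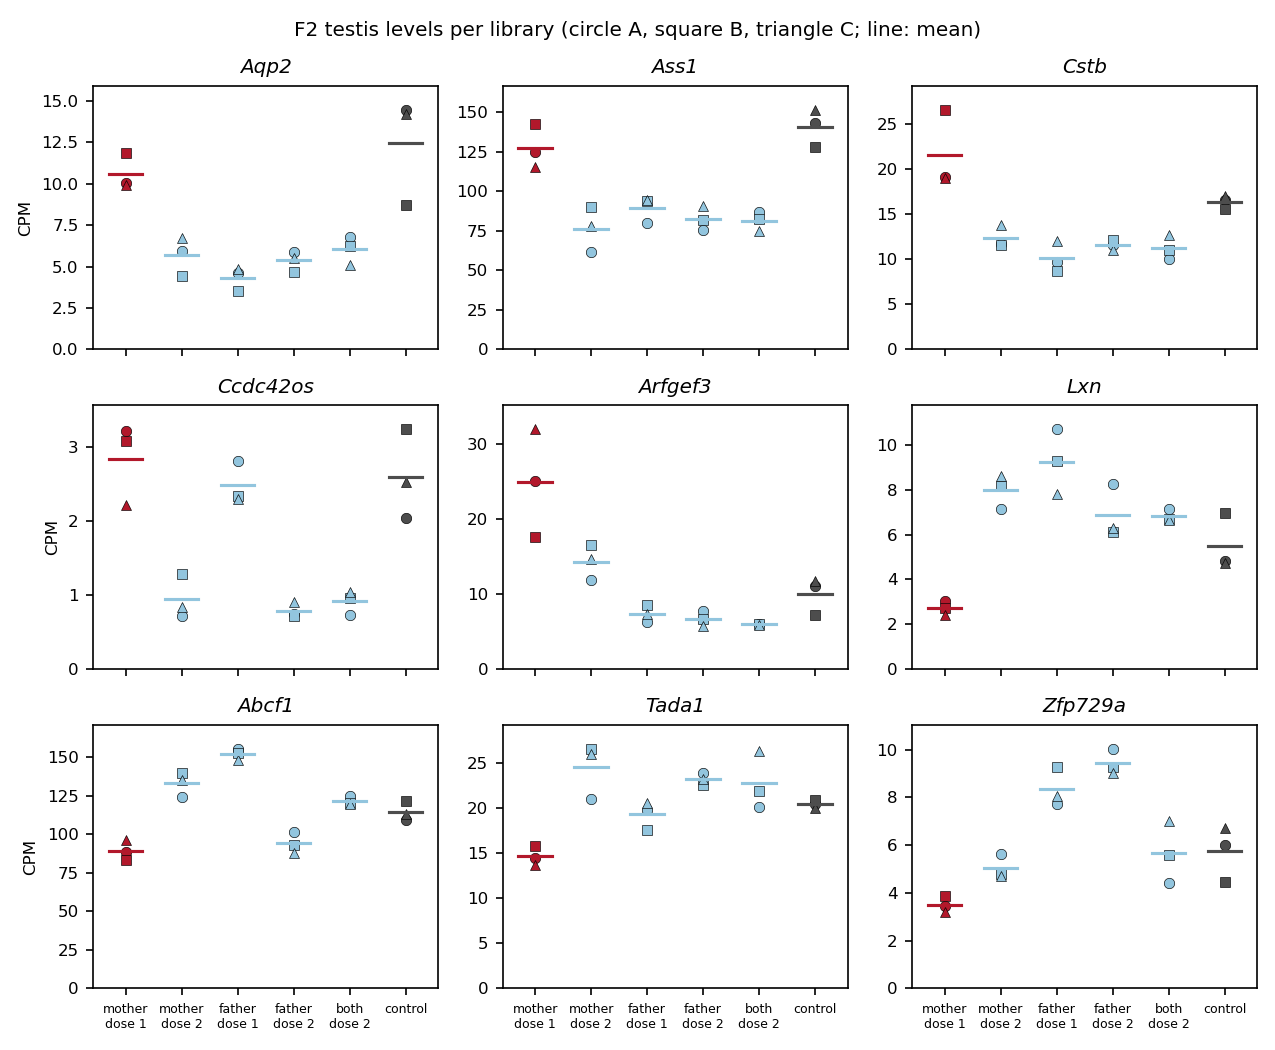
CPM of each F2 testis library (circles A, squares B, triangles C, line at the mean) for 9 genes of the contrast with the other exposed crosses, by group from mother dose 1 (red) through the other 4 crosses (light blue) to control parents (grey). Aqp2 and Ass1 of mother dose 1 libraries lay with the controls and above the other crosses, while Lxn of mother dose 1 libraries, at 2.4 to 3.01 CPM, lay below every other F2 library.

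The remaining called genes were mostly small changes or poorly known transcripts. Of the 154, 37 had predicted symbols, 29 of them higher and 8 lower, and 8 genes averaged under 1 CPM. The transcript 9630028B13Rik, named after its value was seen, held 1.28, 1.74 and 1.46 CPM in mother dose 1 libraries and 0.0266, 0 and 0.0505 CPM in control libraries (log2 5.69 ± 0.99, adjusted p = 0.0158). Of other genes chosen after their values were seen, the sperm-specific organic anion transporter Slco6c1 held 176, 191 and 174 CPM in mother dose 1 libraries and 121, 144 and 114 CPM in control libraries (log2 0.51 ± 0.099, adjusted p = 0.0233). The large cadherin Fat3 held 16.4, 16.2 and 15.1 CPM in mother dose 1 libraries and 30.4, 31.2 and 29.6 CPM in control libraries (log2 -0.93 ± 0.16, adjusted p = 0.00927). Mmadhc, which acts in vitamin B12 handling, held 86.0, 109 and 76.5 CPM in mother dose 1 libraries and 126, 144 and 133 CPM in control libraries (log2 -0.57 ± 0.098, adjusted p = 0.00936).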

How the data were processed

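Messenger RNA of mouse testis was counted in 27 libraries and of ovary in 18 F2 libraries used here. Raw gene counts, 1 table per tissue, are what the authors deposited. The submitters' processing notes name featureCounts 2.0.3, TopHat2 2.1.1, DESeq2 1.32.0, SAMtools 1.13, FastQC 1.19, Bowtie2 2.4.5 and bcl2fastq 2.20, and build mm39. Per the labels' protocols the kit was stranded, with annotation and strand setting not given in the sources used here. Of 26264 rows, 133 without a gene ID (0.319 to 0.35% of counts in the 6 libraries compared) were left out.

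Here edgeR 4.0.16 in R 4.3.3 fitted the 18 F2 testis libraries together (TMM, minimum count 10, robust quasi-likelihood test, Benjamini-Hochberg threshold 0.05), and the 9 F1 testis libraries by themselves. The contrasts were mother dose 1 minus control parents, minus the mean of the other 4 exposed crosses, and F1 dose 1 minus F1 control. The F2 ovary contrast and the F2 effect minus the F1 effect (all 27 testis libraries) were chosen after the data had been seen. SEs were taken from the log2 fold change and its F value. The alternatives, DESeq2 1.42.0 among them, are under the closing section. The fit was checked on simulated counts. No replicates agreed within sampling noise (chi-square per gene at least 3.25).

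Genes named against controls were those past the threshold with a mean of at least 1 CPM, no predicted symbol and no overlap between groups, the 14 largest changes each way, then up to 4 list members with the smallest p, and up to 5 each way against the other crosses. Neighbours up to 3 tested genes away were looked up. The 29 lists and the members were chosen with earlier results of these data known. Their counts of called members stand beside shares of 0.417% higher and 0.386% lower over all tested genes. Results of withheld items are not reported here. RefSeq promoters matched 33 of the 42 named genes.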

Additional observations from a re-analysis of the deposited data

Results flagged for a closer look

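The effect of mother dose 1 in F2 testes was set against the effect of dose 1 in F1 testes in a fit of all 27 testis libraries, as a test of the difference itself added after the data were seen. It passed at 35 of 19400 genes (0.18%) by edgeR's quasi-likelihood test, 7 of them genes named above. The F2 effect exceeded the F1 effect by log2 1.88 for Dctn3 (adjusted p = 0.00397), 1.87 for Il11ra1 (adjusted p = 0.0114), 1.66 for Galt (adjusted p = 0.0114) and 1.37 for Ccl27a (adjusted p = 6.32e-04), all of the run on chromosome 4, and by 3.57 for Tnfrsf12a (adjusted p = 0.0114). It was below the F1 effect by log2 -4.48 for Ceacam10 (adjusted p = 0.00397) and -1.10 for Lxn (adjusted p = 0.0263). In all 7 genes the F1 effect had the opposite sign and did not pass (adjusted p = 0.308 to 0.900). It was log2 -1.5 for Tnfrsf12a and 2.25 for Ceacam10, -0.42 to -0.16 for the genes on chromosome 4 and 0.095 for Lxn. These genes had been named for their F2 values, and the difference tested contains the F2 effect. That choice favours F1 effects of opposite sign, so the signs are a description.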

How the results depend on the processing

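The count of genes called against control parents was 641 by DESeq2, 98 with all 27 testis libraries in the fit and, in a setting added once the data had been seen, 430 without both libraries B. It ran from 27 to 782 when 1 library was left out. Against the other exposed crosses it was 501 by DESeq2 and 22 to 136 with 1 mother dose 1 library left out (22, 136 and 28 without A, B and C). In F1 it was 142 by DESeq2, 13 without the low-count filter and 3 to 299 with 1 library left out (dose 1 A 299, B 10, C 22; control A 3, C 12). RLE size factors (150), no low-count filter (132), rows without a gene ID kept (157) and the replicate block (148, of which 129 were among the 154) stayed within 1.5 times the count of 154. Same-letter deviations correlated at 0.0498, 0.109 and 0.129, so the letters were not taken to pair the samples, and each library correlated best with its own letter. Of 37 named genes, 8 (Tnfrsf12a, Dctn3, Galt, Ccl27a, Tomm6os, Amotl2, Bhlhe40 and Lxn) stayed past the threshold under all 14 settings, 29 lost it under at least 1 and 0 turned sign. The causes were not tested. At 34.7 M to 40.3 M counts (M, 1e6) per library, genes under 1 CPM rest on few reads, and 3 libraries a group limit all calls.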
